A study of Mus musculus with 10 samples.

Results

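The genes described here are Klk1b22, Lrrc4b, Car11, Abcc8 and Ush1c, which lie on both sides of the potassium channel gene Kcnj14 on mouse chromosome 7. They are 5 symbols out of 46786 genes listed at 3 months and 46977 listed at 12 months, chosen by their position and by FPKM differences between hearts labelled knockout and control. Which comparison chose each symbol is not stated. The 3-month values and calls are therefore given as a description that supports nothing, and the 12-month comparison may have entered the choice too. RNA-seq was made from dissected hearts of mice labelled as lacking Prdm16, a zinc-finger regulator of transcription, and of mice labelled control. The groups were 3 knockout-labelled and 3 control hearts at 3 months of age, and 2 knockout-labelled and 2 control hearts at 12 months. The labels name no strain, sex, Cre driver or deleted exon, and the genotype of the controls is given only as control. The libraries are kept apart by their titles and by the codes in their descriptions. No label ties each to an animal of its own, so every p-value covers library spread that may be technical. Values are FPKM, which divide fragments by transcript length and by the mapped fragments of a library, as the authors deposited them. They are therefore per length and can be set beside each other between genes within an age, while the ages come from separate tables and library preparations and were never tested against each other.

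Klk1b22 is a serine protease of the mouse glandular kallikrein cluster, whose proteins cut growth factor and kinin precursors and are best known from the salivary gland. Car11 belongs to the carbonic anhydrases but is a secreted relative without catalytic activity, known mainly from the brain. Lrrc4b (netrin-G ligand 3) is a leucine-rich repeat adhesion protein of synapses that binds LAR-type receptor phosphatases. Ush1c (harmonin) is a PDZ scaffold that ties cadherins and myosins together in hair cell stereocilia and in the brush border of the gut. Abcc8 (SUR1) is the sulfonylurea receptor that joins the pore subunit Kcnj11 (Kir6.2) to form ATP-sensitive potassium channels in pancreatic beta cells, and in mice it is also used in the atria, while the ventricle uses Abcc9 (SUR2). Kcnj14 (Kir2.4), the landmark, is an inwardly rectifying potassium channel subunit.

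All 5 are protein-coding genes in GENCODE M21 (GRCm38). Klk1b22 (ENSMUSG00000060177.6) lies at chr7:44112673-44116922 on the plus strand with 1 transcript of 855 bases, and its start site is 1712 kb below that of Kcnj14. Lrrc4b (ENSMUSG00000047085.14) lies at chr7:44429018-44463351 on the plus strand, 1396 kb below. Car11 (ENSMUSG00000003273.13) lies at chr7:45699843-45704682 on the plus strand, 125 kb below. Kcnj14 itself (ENSMUSG00000058743.5) lies at chr7:45816460-45824782 on the minus strand. Abcc8 (ENSMUSG00000040136.9) lies at chr7:46104523-46180033 on the minus strand, 355 kb above, and Ush1c (ENSMUSG00000030838.17) at chr7:46195350-46238503 on the minus strand, 414 kb above. The stretch from the first base of Klk1b22 to the last base of Ush1c spans 2.13 Mb. Of the 50-base words in the Klk1b22 transcript, 13.3% also occur in other genes, led by the kallikreins Klk1b16 (5.21%) and Klk1b21 (4.09%), so reads of that family can be split or misplaced. For Lrrc4b, Car11, Abcc8 and Ush1c the shared part was 0%.

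The 250 bases before the start site are shown for Klk1b22, Lrrc4b, Car11 and Ush1c, the 4 members with a RefSeq promoter entry. Abcc8 had none. Each of these 4 genes was also called higher in knockout-labelled hearts at 3 months. They were taken from RefSeq (GRCm38.p6), written 5′ to 3′ on the strand of the gene with each CpG in capitals, at chr7:44112423-44112672 for Klk1b22, chr7:44442237-44442486 for Lrrc4b, chr7:45699554-45699803 for the first start of Car11 and chr7:46238491-46238740 for Ush1c. The RefSeq start of Lrrc4b lies inside the GENCODE gene span.
Klk1b22: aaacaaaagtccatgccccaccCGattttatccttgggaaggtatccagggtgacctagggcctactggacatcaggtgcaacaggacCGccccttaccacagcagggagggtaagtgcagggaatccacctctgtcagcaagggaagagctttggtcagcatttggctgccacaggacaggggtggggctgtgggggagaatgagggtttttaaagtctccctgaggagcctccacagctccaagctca
Lrrc4b: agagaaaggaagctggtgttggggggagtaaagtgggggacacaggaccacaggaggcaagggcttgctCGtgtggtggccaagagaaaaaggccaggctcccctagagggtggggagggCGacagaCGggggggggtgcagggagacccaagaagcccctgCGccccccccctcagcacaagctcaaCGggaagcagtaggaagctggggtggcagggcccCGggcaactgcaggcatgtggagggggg
Car11: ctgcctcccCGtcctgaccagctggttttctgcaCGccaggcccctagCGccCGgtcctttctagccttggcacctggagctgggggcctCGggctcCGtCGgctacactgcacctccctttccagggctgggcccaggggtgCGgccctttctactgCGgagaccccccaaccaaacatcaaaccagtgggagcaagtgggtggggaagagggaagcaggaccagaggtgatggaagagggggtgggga
Ush1c: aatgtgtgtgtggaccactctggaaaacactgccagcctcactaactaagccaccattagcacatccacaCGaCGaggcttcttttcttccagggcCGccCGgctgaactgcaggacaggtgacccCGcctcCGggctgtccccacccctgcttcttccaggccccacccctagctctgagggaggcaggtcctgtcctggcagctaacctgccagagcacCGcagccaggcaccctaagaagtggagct
The window of Klk1b22 held 2 CpG at 56% G plus C, that of Lrrc4b 6 at 66%, that of Car11 9 at 65.6% and that of Ush1c 7 at 61.2%. The window of the second start of Car11 (chr7:45699717-45699966, not shown) held 4 CpG at 59.2%. Across 32851 RefSeq promoters of the same length the medians were 6 CpG and 52.4%. The Klk1b22 window and that of the second Car11 start were thus poorer in CpG than the median. Motifs were searched on both strands, and none of those searched occurred in any of the windows shown. The TATA motif TATAAA was found in 12.4% of all such promoters, the E-box CACGTG in 6.02%, the CCAAT box in its 5 letters in 33.8% and the cAMP response element TGACGTCA in 1.55%. At least 1 of the 4 was found in 46.4%. No motif contains another, and a window without a match says only that these letters are not in it.

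Facts of the whole series that touch these genes are as follows. Cardiomyocyte markers (Myh6, Tnnt2, Actc1, Tnni3, Myl2) summed to 28120 to 29734 FPKM in knockout-labelled libraries and 21443 to 26945 FPKM in controls at 3 months, and to 56962 to 57820 and 53964 to 54051 FPKM at 12 months, and all 5 were abundant in every library. Prdm16 itself stood at 1.43, 0.760 and 2.03 FPKM in knockout-labelled libraries and 1.44, 2.23 and 1.61 FPKM in controls at 3 months, where the groups overlapped. At 12 months it stood at 4.02 and 3.58 FPKM against 6.31 and 5.05 FPKM, and it was called at neither age (limma with Benjamini-Hochberg, adjusted p = 0.602 and 0.340). A value per gene also counts exons outside a deleted part, so this check is weak and the hearts are called knockout-labelled throughout. At 12 months the Y-linked gene Ddx3y stood at 24.5 and 20.7 FPKM in knockout-labelled libraries and 0.0352 and 0.0114 FPKM in controls, and Xist at 0.0911 and 0.0240 against 33.1 and 31.0 FPKM, so genotype and sex cannot be told apart at that age. At 3 months Ddx3y was at 16.5 to 19.9 FPKM in all 6 libraries. The 2 knockout-labelled libraries of 12 months lay farther apart from each other (robust SD of gene-wise log2 ratios 0.416) than the controls did (0.113), and at 3 months knockout replicate 2 lay farther from replicates 1 and 3 (0.284 and 0.314) than these from each other (0.145). In whole hearts, fewer cells of a type and less RNA per cell cannot be told apart. The depth of the 3-month libraries is unknown, and at 12 months steps in the low values corresponded to 21.9 to 31.5 M reads per library, with 82.0% to 83.5% of low values within 0.05 of a whole read.

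At 3 months 4 of the 5 genes, Klk1b22, Lrrc4b, Car11 and Ush1c, were called higher in the knockout-labelled hearts, and Abcc8 was not. A gene was called when its limma test on log2(FPKM + 1) had a Benjamini-Hochberg adjusted p under 0.05 over all tested genes, those averaging at least 1 FPKM over the libraries of the age. In that comparison 0.746% of all 12200 tested genes were called, 76 higher (0.623%) and 15 lower, and the groups were apart with knockout higher in 20.1%. An unadjusted p under 0.05 was reached by 18.2% of them. Nothing is read from the count of 4, since that contrast is taken to have entered the choice. Median-of-ratios rescaling gave 42 higher and 17 lower. Without control replicate 2 the calls over all genes numbered 24 and without control replicate 3 they numbered 39, while leaving out knockout replicate 2 or 3 gave 59 or 58.

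Klk1b22 stood at 3.01, 2.83 and 2.28 FPKM in the knockout-labelled libraries of 3 months, against 0, 0.101 and 0 FPKM in the controls. All 3 knockout-labelled libraries were above all controls, of which 2 are listed at 0. The means were 2.71 ± 0.377 FPKM and 0.0336 ± 0.0582 FPKM (SD, n = 3 each), a difference of 1.84 (SE 0.14) on the log2(FPKM + 1) scale, which understates differences of genes this low. With a pseudocount of 0.1 the difference was 4.47.

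Car11 stood at 3.20, 4.05 and 3.63 FPKM in the knockout-labelled libraries and at 1.35, 1.47 and 1.51 FPKM in the controls of 3 months. The groups were apart and the controls lay close together. The means were 3.62 ± 0.423 FPKM and 1.44 ± 0.0864 FPKM (SD, n = 3 each), a ratio of 2.51 and a log2 difference of 0.92 (SE 0.12). The call of Car11 was lost without control replicate 2 (limma with Benjamini-Hochberg, adjusted p = 0.0875), without control replicate 3 (0.0670) and without knockout replicate 3 (0.0527).

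Lrrc4b, the adhesion protein, had the highest level of the 5 genes at 3 months, with 19.2, 14.7 and 19.0 FPKM in the knockout-labelled libraries and 5.23, 6.51 and 5.32 FPKM in the controls. Knockout replicate 2 was the lowest of its group and still more than any control. The means were 17.7 ± 2.55 FPKM and 5.69 ± 0.711 FPKM (SD, n = 3 each), a ratio of 3.10 and a log2 difference of 1.48 (SE 0.14).

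Ush1c, the scaffold, stood at 4.46, 3.91 and 5.22 FPKM in the knockout-labelled libraries, against 0.637, 0.898 and 0.826 FPKM in the controls. No control reached 1 FPKM and the groups were apart. The means were 4.53 ± 0.654 FPKM and 0.787 ± 0.134 FPKM (SD, n = 3 each), a ratio of 5.76 and a log2 difference of 1.63 (SE 0.14).

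Abcc8, the channel subunit, stood at 5.25, 6.34 and 6.28 FPKM in the knockout-labelled libraries and at 3.67, 5.94 and 4.89 FPKM in the controls. The groups overlapped, since control replicate 2 was above knockout replicate 1. The means were 5.96 ± 0.613 FPKM and 4.83 ± 1.14 FPKM (SD, n = 3 each), and the log2 difference was 0.27 (SE 0.16). Abcc8 was called at neither age.

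Ordered by level within the knockout-labelled hearts of 3 months, Lrrc4b was followed by Abcc8, Ush1c, Car11 and Klk1b22. Ush1c and Car11 overlapped in their libraries, and the other neighbours in this order did not. Among controls the order was Lrrc4b, Abcc8, Car11, Ush1c and Klk1b22, and only Lrrc4b and Abcc8 overlapped. At 12 months the order was Abcc8, Lrrc4b, Car11, Ush1c and Klk1b22 in both groups, with every pair of neighbours overlapping in the knockout-labelled hearts and Car11 and Ush1c alone overlapping in the controls.

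**Figure D1:**
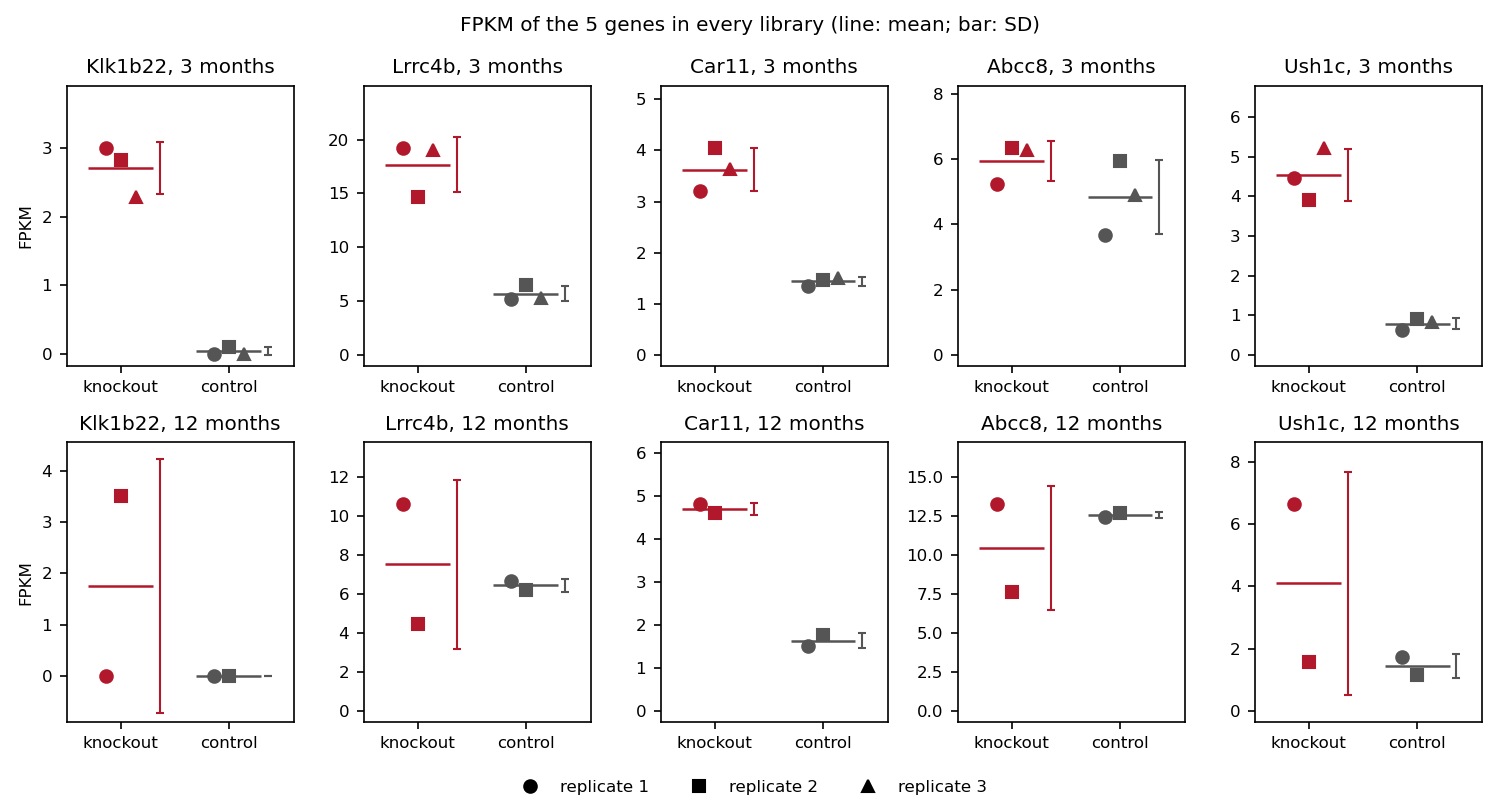
Each panel plots FPKM (vertical axis) of 1 gene at 1 age in knockout (red) and control (grey) libraries, with a marker per replicate, the mean as a line and the SD as a bar. Klk1b22, Lrrc4b, Car11 and Ush1c are apart at 3 months, while at 12 months the knockout libraries of every gene but Car11 spread widely (Klk1b22 0 and 3.51 FPKM, Ush1c 6.64 and 1.57 FPKM).

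At 12 months, an age that may also have entered the choice of the genes, 0 of the 4 members that passed the filter (Lrrc4b, Car11, Abcc8 and Ush1c) were called by limma with Benjamini-Hochberg adjustment, and 1 of the 4, Car11, had an unadjusted p under 0.05, beside 13.6% of all tested genes. Of all 13179 genes tested at 12 months 0.395% were called, 22 higher and 30 lower, and TPM rescaling gave 14 higher and 33 lower. The calls over all genes numbered 4208 without knockout replicate 1, 613 without knockout replicate 2 and 0 without either control. Both knockout-labelled libraries were above both controls for 1 of the 4 members, Car11, and for 27.3% of all tested genes.

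Car11 stood at 4.82 and 4.62 FPKM in the knockout-labelled libraries of 12 months, against 1.52 and 1.76 FPKM in the controls. The groups were apart, and the libraries of each lay close together. The means were 4.72 ± 0.140 FPKM and 1.64 ± 0.172 FPKM (SD, n = 2 each), a ratio of 2.87 and a log2 difference of 1.12 (SE 0.14), higher in 2 of 2 knockout-labelled libraries. The difference failed the correction over all genes (limma with Benjamini-Hochberg, adjusted p = 0.110, unadjusted p = 0.00102). Over the alternatives that kept all libraries the adjusted p (limma with Benjamini-Hochberg) ran from 0.101 with a pseudocount of 0.1 to 0.218 without a filter. Without knockout replicate 1 the log2 difference was 1.09, and without replicate 2 it was 1.14, each with 1 knockout-labelled library left.

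Klk1b22 was listed at 0 in knockout replicate 1 and at 3.51 FPKM in knockout replicate 2 of 12 months, and at 0 in both controls. One knockout-labelled library thus held Klk1b22, and the other 3 libraries of 12 months are listed at 0. From the steps in the low values, 3.51 FPKM corresponded to about 48.8 reads, and 3 reads to between 0.150 and 0.216 FPKM in these 4 libraries, counting error only. The mean of 0.877 FPKM over the 4 libraries was under the filter, so Klk1b22 was not tested at this age.

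Lrrc4b stood at 10.6 and 4.46 FPKM in the knockout-labelled libraries of 12 months and at 6.69 and 6.22 FPKM in the controls. Knockout replicate 1 lay above both controls and replicate 2 below both. The means were 7.54 ± 4.34 FPKM and 6.45 ± 0.339 FPKM (SD, n = 2 each), and the log2 difference was 0.10 (SE 0.39; limma with Benjamini-Hochberg, adjusted p = 0.922). The sign turned without knockout replicate 1 (−0.45) and under TPM rescaling (−0.18), which moved the median of all tested genes to −0.27, and without knockout replicate 2 the difference was 0.64.

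Ush1c stood at 6.64 and 1.57 FPKM in the knockout-labelled libraries of 12 months and at 1.73 and 1.17 FPKM in the controls. Replicate 1 was high and replicate 2 lay between the controls. The means were 4.11 ± 3.58 FPKM and 1.45 ± 0.397 FPKM (SD, n = 2 each), and the log2 difference was 0.87 (SE 0.57; limma with Benjamini-Hochberg, adjusted p = 0.552). It was 1.65 without knockout replicate 2 and 0.08 without replicate 1.

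Abcc8 stood at 13.3 and 7.67 FPKM in the knockout-labelled libraries of 12 months and at 12.5 and 12.7 FPKM in the controls. Replicate 1 was slightly above both controls and replicate 2 below them. The means were 10.5 ± 3.96 FPKM and 12.6 ± 0.175 FPKM (SD, n = 2 each), and the log2 difference was −0.29 (SE 0.27; limma with Benjamini-Hochberg, adjusted p = 0.650). Without knockout replicate 1 the difference was −0.65, and without replicate 2 it was 0.07, each with 1 knockout-labelled library left.

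The landmark Kcnj14 stood at 4.87 and 4.71 FPKM in the knockout-labelled libraries of 12 months, against 0.234 and 0.236 FPKM in the controls. Its log2 difference was 2.23 (SE 0.15; limma with Benjamini-Hochberg, adjusted p = 0.0328), and the call was lost without control replicate 1 (0.346) or control replicate 2 (0.408). At 3 months Kcnj14 stood at 21.1, 22.0 and 20.1 FPKM in the knockout-labelled libraries and 0.328, 0.525 and 0.232 FPKM in the controls, a log2 difference of 4.02 (SE 0.12). Of its 50-base words, 30.8% also occur in the pseudogene Gm5522 on chromosome 1.

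The 2 knockout-labelled libraries of 12 months thus held different members at a high level. Set against the control mean on the log2(FPKM + 1) scale, knockout replicate 1 was at 0 for Klk1b22, 0.64 for Lrrc4b, 1.14 for Car11, 0.07 for Abcc8 and 1.65 for Ush1c. Knockout replicate 2 was at 2.17 for Klk1b22, −0.45 for Lrrc4b, 1.09 for Car11, −0.65 for Abcc8 and 0.08 for Ush1c. Car11 and Kcnj14, whose start sites are 125 kb apart, were above both controls in both libraries, as were 38.0% of the 71 tested genes of the stretch and 27.3% of all tested genes.

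The gap between the knockout-labelled libraries, replicate 1 minus replicate 2, was −2.17 for Klk1b22, 1.57 for Ush1c, 1.09 for Lrrc4b, 0.72 for Abcc8, 0.05 for Car11 and 0.04 for Kcnj14. Of all genes tested at 12 months, 0.979% had a wider gap than Klk1b22, 1.89% than Ush1c, 4.64% than Lrrc4b, 12.5% than Abcc8, 90.1% than Car11 and 91.8% than Kcnj14. Between the controls the gap of these genes was at most 0.33, that of Ush1c. This split of the members between 2 libraries is a description without a test.

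**Figure D2:**
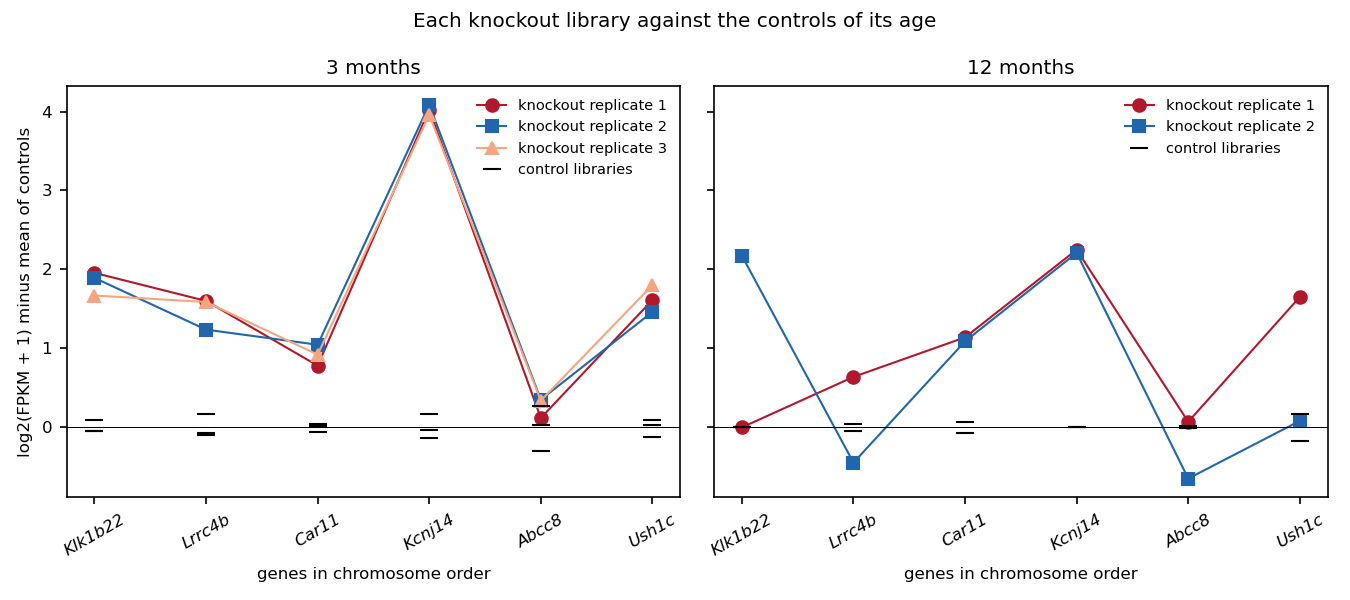
The vertical axis is the log2(FPKM + 1) difference of each knockout library from the control mean of its age, for the 5 genes and Kcnj14 in chromosome order, and dashes are the control libraries. The lines only join the values of 1 library: the 3 knockout libraries run together at 3 months, and at 12 months replicate 1 (Klk1b22 0, Ush1c 1.65) and replicate 2 (Klk1b22 2.17, Ush1c 0.08) part except at Car11 and Kcnj14.

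Between Klk1b22 and Ush1c 156 genes were listed and 71 were tested at each age. At 3 months 7 of the 71 were called, 9.86%, of which 6 were higher and 1 lower, against 0.746% of all genes, and the stretch was singled out with these values known. The calls were the 4 members, the landmark Kcnj14, Bcat2 and Atf5. Most of them are thus genes on which the choice of the stretch rested, and nothing is read from the share. The median log2 difference over the 71 was 0.22, with 52 higher and 19 lower, beside 0.09 over all tested genes and 0.13 over the 824 tested on the rest of chromosome 7. Of these 824 genes, 6 were called, 0.728%. At 12 months the median was 0.10 beside 0.01, and 1 of the 71 was called, 1.41% beside 0.395% of all genes. The call was Kcnj14, the landmark by which the stretch was chosen, so nothing is read from the count. Kcnj14 passed the filter only through its knockout-labelled libraries. That count was 25 without knockout replicate 1, 5 without replicate 2 and 0 without either control.

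Bcat2, the mitochondrial branched-chain aminotransferase, stood at 107, 108 and 95.9 FPKM in the knockout-labelled libraries and 57.4, 56.5 and 46.4 FPKM in the controls of 3 months (log2 0.94, SE 0.13). At 12 months it stood at 106 and 115 FPKM against 71.5 and 69.1 FPKM (log2 0.64, SE 0.11; limma with Benjamini-Hochberg, adjusted p = 0.184), apart at both ages. Atf5, a stress-response transcription factor, was the call in the other direction, with 39.2, 37.9 and 40.8 FPKM in the knockout-labelled libraries and 92.0, 108 and 80.2 FPKM in the controls (log2 −1.22, SE 0.14). At 12 months Atf5 stood at 26.7 and 37.6 FPKM against 25.4 and 26.4 FPKM (log2 0.28, SE 0.20; adjusted p = 0.564). Slc17a7, a vesicular glutamate transporter gene of the stretch that was chosen after its values were seen, stood at 12.6, 20.5 and 20.5 FPKM in the knockout-labelled libraries and 4.27, 5.55 and 10.3 FPKM in the controls of 3 months. Its groups were apart and its log2 difference was close to that of Lrrc4b (1.34, SE 0.29; limma with Benjamini-Hochberg, adjusted p = 0.0827). At 12 months Slc17a7 stood at 17.2 and 23.3 FPKM against 9.22 and 9.63 FPKM, again apart (log2 1.01, SE 0.18; adjusted p = 0.191). Within 1 Mb outside the stretch 17 genes were tested at 3 months and 1 was called, Nkg7 of cytotoxic lymphocyte granules, just outside the positions that define the set (log2 1.62, SE 0.20). At 12 months 0 of 19 such genes were called by limma and 2 had an unadjusted p under 0.05.

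**Figure D3:**
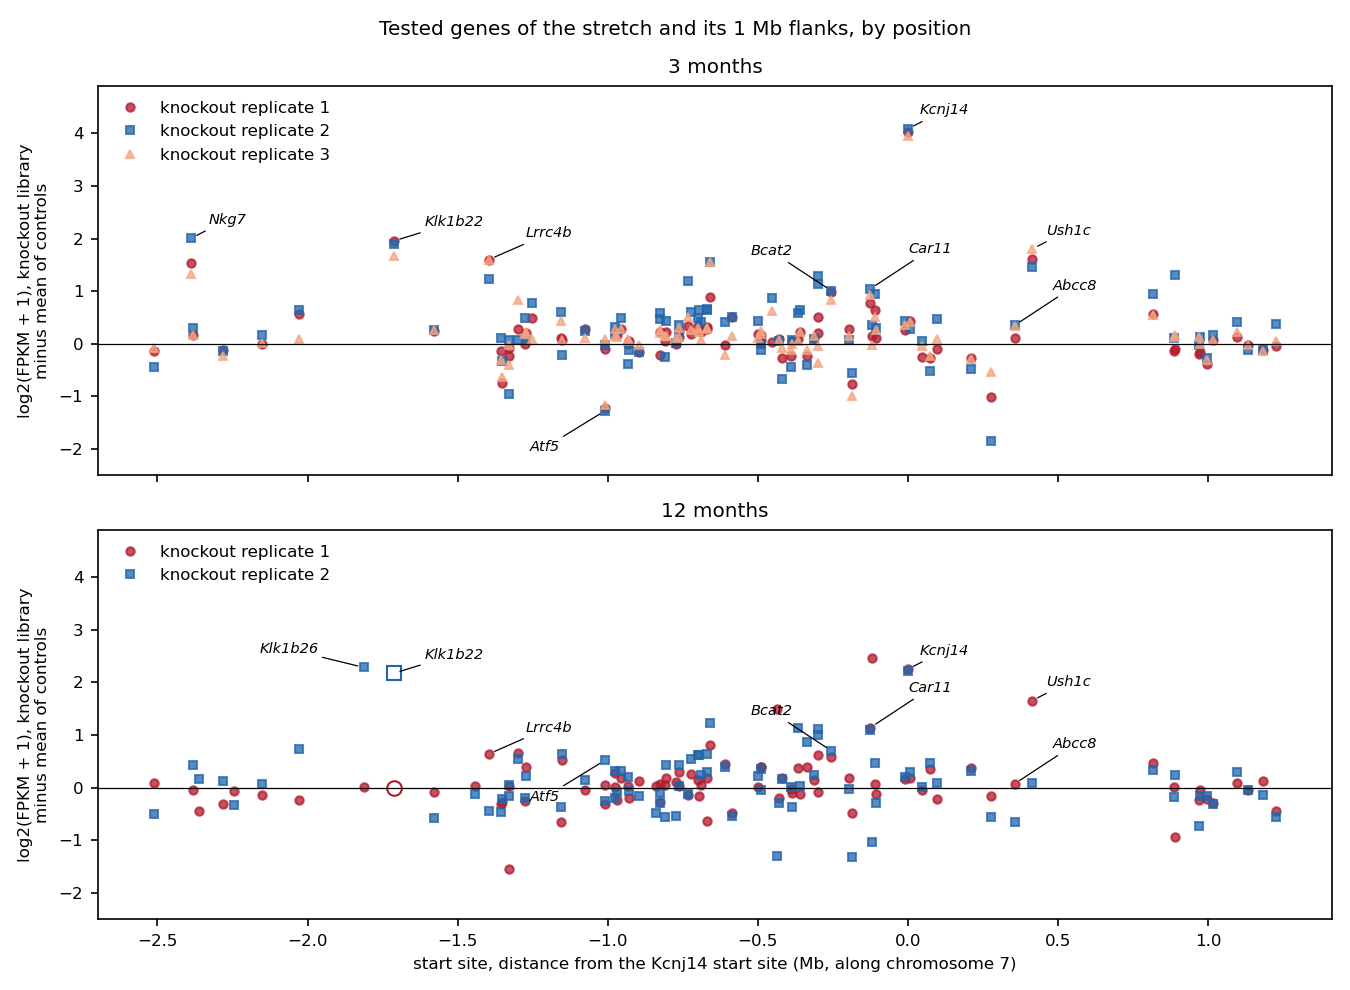
Every tested gene of the stretch and its 1 Mb flanks is placed by the distance of its start site from that of Kcnj14 (Mb, horizontal axis), with the log2(FPKM + 1) difference of each knockout library from the control mean (vertical axis). Most of the 71 genes of the stretch lie near 0 at 3 months (median 0.22) while Klk1b22, Lrrc4b, Kcnj14, Ush1c and Slc17a7 (1.34) have the 5 highest mean differences, and open symbols mark Klk1b22 at 12 months, where it was under the filter.

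Neighbours were taken from protein-coding genes tested at both ages. Of the 7 such genes outside the set that were nearest to the 5 genes, 0 were called at either age by limma. At an unadjusted p under 0.05 there were 3 at 3 months (Klk8, Mamstr and Kcnj11) and 2 at 12 months (Josd2 and Mamstr), beside 18.2% and 13.6% of all tested genes. Josd2, a deubiquitinase gene 4.63 kb from Lrrc4b, had 75.5, 90.6 and 67.6 FPKM in the knockout-labelled libraries and 81.7, 92.4 and 76.8 FPKM in the controls of 3 months (log2 −0.11, SE 0.15). At 12 months its log2 difference was −0.39 (SE 0.11; limma with Benjamini-Hochberg, adjusted p = 0.302). On the other side of Lrrc4b and of Klk1b22, 2410002F23Rik had log2 differences of 0.26 at 3 months and −0.33 at 12 months, with the groups overlapping at both ages. Klk8 (neuropsin), the nearest gene tested at both ages on the other side of Klk1b22, had 0.43 and 0.24, overlapping at both ages. Klk1b26, which was tested at 12 months only, lies nearer to Klk1b22 on that side.

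Dbp, a circadian transcription factor gene 0.406 kb from Car11, had 26.5, 30.8 and 23.3 FPKM in the knockout-labelled libraries and 18.3, 31.8 and 23.2 FPKM in the controls of 3 months, and the groups overlapped. At 12 months it stood at 101 and 8.08 FPKM against 18.3 and 16.9 FPKM, so that its 2 knockout-labelled libraries lay on opposite sides of the controls while those of Car11 did not. Only 0.334% of tested genes had a wider gap between these libraries than Dbp. Mamstr, a muscle co-activator of MEF2 on the other side of Car11, ran lower, with 1.16, 1.51 and 0.854 FPKM in the knockout-labelled libraries and 2.54, 2.71 and 2.76 FPKM in the controls (log2 −0.77, SE 0.14; limma with Benjamini-Hochberg, adjusted p = 0.0543). At 12 months Mamstr stood at 4.02 and 1.80 FPKM against 5.99 and 6.07 FPKM (log2 −0.91, SE 0.31; adjusted p = 0.355), so it passed the test at neither age.

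Kcnj11, the pore partner of Abcc8 and 3.76 kb from it, had 14.3, 7.52 and 20.3 FPKM in the knockout-labelled libraries and 26.2, 38.7 and 25.9 FPKM in the controls of 3 months. The groups were apart, with knockout replicate 2 the lowest (log2 −1.13, SE 0.31; limma with Benjamini-Hochberg, adjusted p = 0.142). At 12 months it had 49.3 and 37.0 FPKM against 56.0 and 53.7 FPKM (log2 −0.35, SE 0.17; adjusted p = 0.457). Ush1c and Abcc8 are themselves neighbours, 15.3 kb apart, and their 3-month log2 differences were 1.63 and 0.27. Beyond Ush1c, the guanine exchange factor gene Sergef had 0.69 (SE 0.33) and 0.39 (SE 0.23) at 3 and 12 months, both short of the threshold. The genes on either side of Kcnj14, Cyth2 and Grwd1, had 0.35 and 0.38 at 3 months and 0.18 and 0.23 at 12 months, and neither was called.

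Over the 10 libraries, each gene centred within its age, the profile of Lrrc4b was close to that of Ush1c (Pearson r = 0.94 on log2(FPKM + 1)). Klk1b22 had r = 0.78 with Car11, 0.51 with Lrrc4b and with Ush1c, and −0.14 with Abcc8. Car11 had the highest r with Kcnj14 of the 5 genes (0.93). These coefficients are descriptions: all points share the same 10 libraries and the difference that chose 4 of the genes.

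Among the 11580 genes tested at both ages, the most alike profiles by the same measure were those of 1810044D09Rik (0.98), Gcat (0.97) and Emd (0.97) for Klk1b22. For Lrrc4b they were Ndc1 (0.98), Them6 (0.95) and Ush1c, and for Ush1c they were Pgm5 (0.98), Ndc1 (0.96) and Ehd4 (0.95). Ndc1, a nuclear pore membrane protein gene, thus stood on both lists. For Car11 they were Tubg2, Pbxip1 and Syn2 (each 0.98 or above), and for Abcc8 Unc5b (0.98), Aasdh (0.97) and Phf8 (0.97). Of these 14 other genes, Ush1c alone lies on chromosome 7.

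Each of the 5 genes was set beside its relatives and the genes it is known to work with. Of the kallikreins and their growth factor and kinin partners, 19 of 20 genes were listed and 2 were tested at each age. At 3 months Klk1b22 was the 1 called and Egf (0.42), a growth factor that kallikreins of the salivary gland process, was not. Apart from Klk1b26, the other 12 listed kallikreins stayed at or below 0.108 FPKM in every library of 3 months. At 12 months 0 of 2 were called by limma and 0 had an unadjusted p under 0.05. Klk1b26, which passed the filter at 12 months while Klk1b22 did not, stood at 0.0322 and 4.00 FPKM in the knockout-labelled libraries against 0.0286 and 0.0273 FPKM in the controls. Knockout replicate 2 thus held both kallikreins and replicate 1 neither. The transcripts of the 2 share words with other kallikreins (13.3% for Klk1b22 and 15.0% for Klk1b26).

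Of the netrin-G ligand family and its partners, Lrrc4b was the 1 called of 3 tested at 3 months, beside Ntng2 (0.23) and the receptor phosphatase Ptprs (0.29). Its close relatives Lrrc4 and Lrrc4c stayed under the filter at both ages. At 12 months 0 of 6 were called by limma, 1 had an unadjusted p under 0.05, and the median was 0.04, with Ntng2, a netrin-G, at 0.67 (SE 0.22; Benjamini-Hochberg adjusted p = 0.337).

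Of the carbonic anhydrases, 8 of 15 listed were tested at 3 months and Car11 was the 1 called, beside a median of 0.11. The next by p was Car2 (0.58, SE 0.18; limma with Benjamini-Hochberg, adjusted p = 0.182). At 12 months 7 of 16 were tested and 1 was called, lower: Car3, the isoform of fat and slow muscle, at 3.37 and 3.30 FPKM in the knockout-labelled libraries against 29.8 and 32.0 FPKM in the controls (log2 −2.88, SE 0.11; limma with Benjamini-Hochberg, adjusted p = 0.00806). Car11 at 1.12 and Car3 at −2.88 were the ends of that list, whose median was 0.09.

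Of the 4 ATP-sensitive potassium channel subunits, all were tested and 0 were called at either age by limma. At an unadjusted p under 0.05 there were 2 at 3 months, Kcnj11 and Abcc9, and 0 at 12 months, beside 18.2% and 13.6% of all tested genes. The ventricular receptor Abcc9 had log2 differences of −0.48 (SE 0.19) and −0.11 (SE 0.36) at 3 and 12 months, and the vascular pore subunit Kcnj8 0.09 (SE 0.13) and −0.22 (SE 0.12). The medians were −0.19 and −0.26. Of 14 partners of Ush1c in hair cells and brush border, 4 were tested at each age (Cdh23, Myo7a, Whrn and Cib2) and 0 were called by limma, of which 0 at 3 months and 1 at 12 months had an unadjusted p under 0.05, with medians of −0.01 and −0.27. The lowest was Whrn at 12 months, with 12.3 and 6.70 FPKM in the knockout-labelled libraries against 18.0 and 16.4 FPKM in the controls (log2 −0.85, SE 0.29; limma with Benjamini-Hochberg, adjusted p = 0.355).

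**Figure D4:**
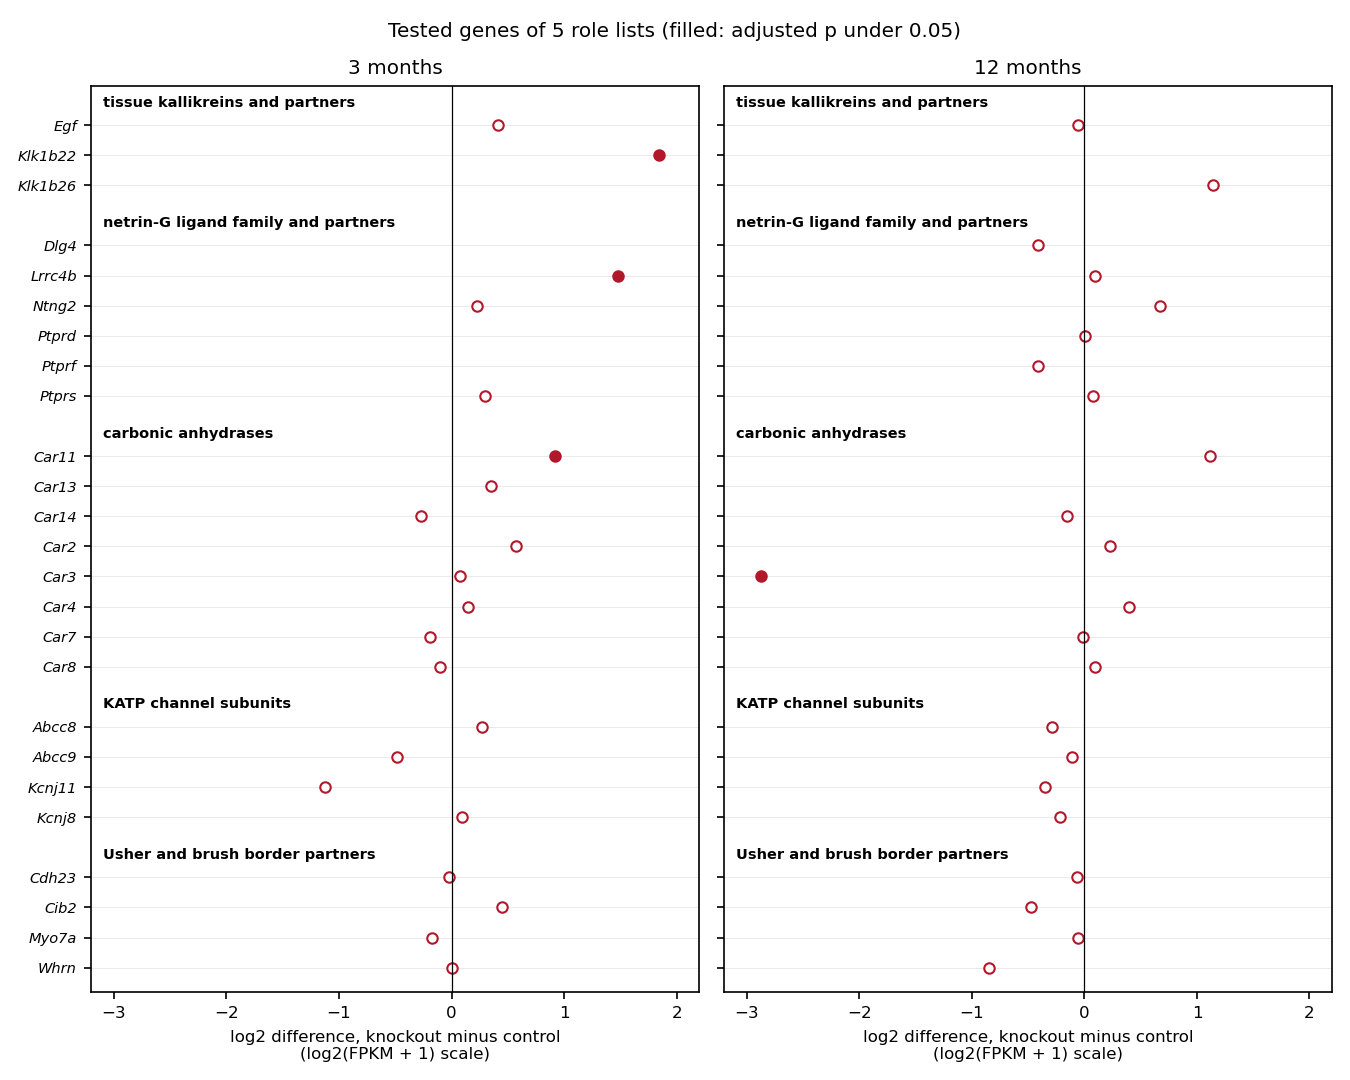
The horizontal axis is the log2(FPKM + 1) difference, knockout minus control, of each tested gene of 5 lists at 3 months (left) and 12 months (right), and filled points had an adjusted p under 0.05. Klk1b22, Lrrc4b and Car11 are the filled points at 3 months, and Car3 (−2.88) is the filled point at 12 months.

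Markers of other cell types also differed between libraries, and their relation to the 5 genes was not tested. The atrial list (Nppa, Sln, Myl7, Myl4, Bmp10, Stard10) summed to 12317 to 28666 FPKM in the knockout-labelled libraries and 716 to 6193 FPKM in the controls of 3 months, with Nppa the 1 called of 6. At 12 months it summed to 13624 to 15878 FPKM and 6172 to 6334 FPKM, with 0 of 6 called by limma and 2 at an unadjusted p under 0.05. Nppa carried both sums. Without it, left out after its values were seen, the list summed to 493 to 8815 FPKM in the knockout-labelled libraries and 155 to 2367 FPKM in the controls of 3 months, and to 774 to 2361 FPKM against 2938 to 3021 FPKM at 12 months. Of the 6, 5 had a higher mean log2 value in the knockout-labelled libraries at 3 months and 2 at 12 months, where the median log2 difference was −1.22. Sln, a defining atrial gene, stood at 98.6, 2473 and 863 FPKM against 73.1, 37.3 and 670 FPKM at 3 months, and at 48.0 and 387 FPKM against 480 and 447 FPKM at 12 months. The part of atrial tissue in the values of Abcc8, the receptor of atrial channels in mice, and of the other 4 genes was not tested.

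The nerve and glia list summed to 10.7 to 31.7 FPKM in the knockout-labelled libraries and 10.3 to 11.9 FPKM in the controls of 3 months, and knockout replicate 2 alone was high, with Prph at 2.25 FPKM and Snap25 at 1.52 FPKM. At 12 months the same list ran from 25.9 to 26.2 FPKM and from 24.5 to 27.7 FPKM, with 0 of 4 tested genes called by limma and 0 at an unadjusted p under 0.05. Endocrine markers, for the beta cell role of Abcc8, summed to at most 0.509 FPKM at 3 months and 0.658 FPKM at 12 months, and Ins1 was at 0 in every library. The epithelial list, for the gut role of Ush1c, ran from 1.08 to 1.80 FPKM in the knockout-labelled libraries and from 11.6 to 27.5 FPKM in the controls of 3 months, and the airway gene Scgb1a1, the 1 called of the list, carried the sums of the controls. Scgb1a1 was then left out after its values were seen. The list without it ran from 0.927 to 1.63 FPKM in the knockout-labelled libraries and from 0.542 to 1.14 FPKM in the controls. In it Krt18 alone was apart, with 0.682, 0.809 and 0.665 FPKM against 0.291, 0.413 and 0.458 FPKM. Epcam, Cdh1, Krt8 and Vil1 overlapped, and the highest sum included Vil1 at 0.670 FPKM in knockout replicate 1. At 12 months that list ran from 1.21 to 3.59 FPKM in the knockout-labelled libraries and from 3.13 to 3.23 FPKM in the controls.

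Red cell genes were called higher in 5 of 5 at 3 months, with sums of 2081 to 3111 FPKM in knockout-labelled libraries and 818 to 1113 FPKM in controls. They were called lower in 5 of 5 at 12 months, with 1955 to 2157 FPKM against 10646 to 10782 FPKM. Lymphocyte genes summed to 7.99 to 11.3 FPKM against 1.85 to 3.05 FPKM at 3 months, with 2 of 3 called higher, and to 1.51 to 7.58 FPKM against 6.54 to 7.81 FPKM at 12 months. The part of these cells in the values of the 5 genes was not tested.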

How the data were processed

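Hearts were dissected and RNA extracted with a column kit, per the labels' protocols. Libraries of 3 months were strand-specific and poly(A)-selected (NEBNext Ultra II Directional), and those of 12 months came from the Genome Institute of Singapore by a method of its own, as those protocols say. The authors deposited FPKM in a separate table for each age and no read counts. Per the submitters' processing notes the tools were Cufflinks 2.1.1, STAR 2.5.1b, TopHat2 2.1.0 and FastQC, with builds GRCm38 and mm10, and what each tool did is not stated there. By its name the 12-month table leaves out outliers, with no criterion given.

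Genes were matched by Ensembl identifier without version to GENCODE M21 (46297 of 46786 at 3 months and 46484 of 46977 at 12 months), and 69 entries of 3 months that repeated an identifier were summed. Sample titles gave the groups and replicate numbers. Each age was fitted alone with limma 3.58.1 in R 4.3.3 on log2(FPKM + 1), for genes averaging at least 1 FPKM, with trended empirical Bayes moderation and Benjamini-Hochberg adjustment over all tested genes (threshold 0.05). The fits left 4 residual degrees of freedom at 3 months and 2 at 12 months. An exact permutation test could not go below 0.1 with 3 against 3 or 0.333 with 2 against 2, so none was used. The fit was tested on simulated data. The difference between the ages was not tested.

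The members and lists were chosen with earlier results of these data known. Named genes were the 5 members, Kcnj14, and the nearest protein-coding gene on each side that was tested at both ages. Called genes of the stretch and its 1 Mb flanks and the 3 most alike genes per member were named too. For each list the called members and up to 4 others of lowest p were named. In the kallikrein list 1 gene is not reported here. Other genes (Klk1b26, Klk8, Prdm16, Xist, Ddx3y and the marker genes singled out) serve as checks and were partly chosen after their values were seen. Shared 50-base words were counted over GENCODE transcripts, and promoters came from RefSeq (GRCm38.p6), which had an entry for 4 of the 5 members. Tables and figures were made in Python 3.11.15 with pandas 2.3.3, numpy 2.4.6 and matplotlib 3.10.9. Alternatives were median-of-ratios and TPM rescaling, a pseudocount of 0.1, no filter, a filter at 5 FPKM, no trend, a replicate block and leaving out each library.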

Additional observations from a re-analysis of the deposited data

How the results depend on the processing

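The direction of all 5 members at 3 months, and of Car11, Ush1c and Kcnj14 at 12 months, held under every alternative that gave a value. At 3 months the choice of the genes is taken to have largely fixed that direction. Reversals occurred at 12 months for Lrrc4b (0.10), at −0.18 under TPM rescaling and from −0.45 to 0.64 with 1 library left out, and for Abcc8 (−0.29), from −0.65 to 0.070 with 1 library left out. The 91 calls of 3 months became 59 under median-of-ratios rescaling, 142 under TPM rescaling and 10 without a filter, and ran from 24 to 77 when 1 library was left out. The 7 calls of the stretch at 3 months became 3 without a filter, which dropped Bcat2, Atf5, Lrrc4b (limma adjusted p = 0.0543) and Car11 (0.0971), and 4 with a filter at 5 FPKM, which leaves Klk1b22, Car11 and Ush1c untested. With 1 library left out they ran from 5 to 8. The 52 calls of 12 months became 17 without a filter and ran from 0 to 4208 with 1 library left out. The 1 call of the stretch, Kcnj14, became 0 without a filter (adjusted p = 0.105) and 0 with a filter at 5 FPKM, under which it is untested, and ran from 0 to 25 with 1 library left out. Where a group was left with 1 library, that library was assumed to vary like the other group. Apart from the filters, the cause was not tested.

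Same-numbered libraries of 3 months did not vary together (r of −0.12, −0.46 and −0.14, beside −0.33 to 0.37 for differently numbered ones). Centring on the group means ties these r values together. With 2 libraries per group at 12 months centring forces every r to 1 size (−0.01 for same numbers, 0.01 for others), so it cannot show pairing. Whether the numbers pair animals by design is not stated. A replicate block gave 29 calls at 3 months, 4 of them in the stretch, and 40 at 12 months, 0 of them in the stretch, and it ended the calls of Car11 at 3 months (adjusted p = 0.0726) and of Kcnj14 at 12 months (0.0711).

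With 2 libraries per group at 12 months and unequal knockout-labelled libraries, members whose libraries disagree cannot be placed. At 3 months no depth is known behind low values such as Klk1b22 in the controls.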

Other observations

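Outside the named rule, Fut2, a fucosyltransferase gene of the same stretch, was under the filter at both ages and its groups were apart, with 0.0404, 0.0285 and 0.0272 FPKM in the knockout-labelled libraries and 0.179, 0.144 and 0.186 FPKM in the controls of 3 months, and 0.456 and 0.260 FPKM against 1.09 and 1.09 FPKM at 12 months. Rpl18, a ribosomal protein gene of the stretch, had 230.0, 284 and 209 FPKM in the knockout-labelled libraries and 145, 140.2 and 157 FPKM in the controls of 3 months (log2 0.70, SE 0.15; limma, Benjamini-Hochberg adjusted p = 0.0822). Both were chosen after their values were seen.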
